A study of Rattus norvegicus with 27 samples.

Results

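The prefrontal cortex of Goto-Kakizaki rats was set directly against that of streptozotocin-treated rats, so that both diabetic models of the study were compared with each other. The comparison used 6 of the 27 arrays of the series, taken by their labels, with 3 arrays per model. Each array measured RNA pooled from the prefrontal cortex of 3 male rats of 10 weeks, and hippocampus and striatum of the same rats were measured on other arrays. Goto-Kakizaki rats are a non-obese strain that was bred from Wistar rats and becomes diabetic spontaneously, as a model of type 2 diabetes, and their labels give a blood sugar of 13.9 mmol/l. The streptozotocin-treated rats were Wistar rats injected intravenously with 65 mg/kg of this beta-cell toxin at 6 weeks of age, 4 weeks before dissection, as a model of type 1 diabetes, and their labels give 26.34 mmol/l. Wistar control rats of the same age, at 7.64 mmol/l, served in 3 further prefrontal pools to place the levels of both models. Strain and treatment cannot be told apart in this comparison, because every Goto-Kakizaki pool differed from every streptozotocin pool in both. Slide and model cannot be told apart either, since the Goto-Kakizaki pools lay on slides 1 and 3 and the streptozotocin and Wistar pools on slides 5, 6 and 7. No source used here states whether the streptozotocin-treated and the control Wistar rats came from the same breeding stock.

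Streptozotocin enters beta cells and destroys them, so that little insulin is made, whereas in Goto-Kakizaki rats many inherited variants together impair the secretion and the action of insulin. Neurons and glia carry receptors for insulin and for the insulin-like growth factor IGF-1, which act through tyrosine kinase signalling on growth, metabolism and synapses. The prefrontal cortex holds excitatory projection neurons, inhibitory interneurons and glia, and it serves working memory and the control of behaviour.

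All 18 markers of cortical projection neurons on the array passed the filter on dim probes, which asked that at least 2 of 3 arrays of either model read a probe well above background. The 75th percentile of the processed signal was 947 to 1505 on the Goto-Kakizaki arrays, 978 to 1424 on the streptozotocin arrays and 1200 to 1519 on the Wistar arrays. Between 69.7% and 75.3% of probes were well above background on these 9 arrays, and no spot was saturated. Levels correlated at 0.985 to 0.993 among the Goto-Kakizaki pools, 0.970 to 0.991 among the streptozotocin pools and 0.975 to 0.992 among the Wistar pools (Pearson's r across probes, which are not independent replicates). Precision is limited by the small number of arrays.

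Of 30443 probes tested, 1082 (3.55%) were called, which means a Benjamini-Hochberg adjusted p under 0.05 in limma's moderated test and a change of at least 2-fold. In Goto-Kakizaki prefrontal cortex 374 probes (1.23%) were higher and 708 (2.33%) lower than in streptozotocin prefrontal cortex. The pools of both models did not overlap for 1062 of the 1082 called probes, beside 34.7% of all tested probes. Large changes were mostly decreases: 35 probes were at least 4-fold higher and 155 at least 4-fold lower, and 2 were at least 16-fold higher and 22 at least 16-fold lower. The median log2 fold change was 1.24 among probes called higher and -1.37 among those called lower, against 0.03 over all tested probes. Of the probes called lower, 117 were well above background on no Goto-Kakizaki array, and of those called higher, 54 were so on no streptozotocin array. With normexp background correction in place of the processed signal, 414 probes were called and 23.7% of them were higher, against 34.6% of the 1082. Normexp moved the median log2 difference between the models over all 41012 non-control probes, tested or not, by -0.34. Over the genes tested, with 1 probe per gene, the median log2 fold change was -0.09 with normexp, against 0.07 with the processed signal.

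The array reads each transcript through an oligonucleotide of 60 bases. The probes of 5 genes with large differences are shown as deposited, 5′ to 3′, to identify what was measured. All letters are in lower case because no part of them is singled out.
Scn9a: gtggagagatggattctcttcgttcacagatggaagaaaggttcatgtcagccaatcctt
Galnt16: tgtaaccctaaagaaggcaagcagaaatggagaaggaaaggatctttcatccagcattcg
Ephx2: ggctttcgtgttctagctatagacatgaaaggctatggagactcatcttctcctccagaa
Rps7: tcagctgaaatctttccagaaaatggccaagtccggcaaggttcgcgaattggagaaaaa
Acox2: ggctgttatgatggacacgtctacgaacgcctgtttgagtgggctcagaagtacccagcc
The first 4 of these read lower in Goto-Kakizaki rats and the fifth read higher. Whether the strains differ in sequence under a probe was not tested.

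Among the decreases in Goto-Kakizaki rats of probes with a gene symbol, the largest was that of Spock2. This gene encodes testican-2, a proteoglycan of the extracellular matrix of the brain. Its normalised signal, the log2 signal minus that of the 75th percentile of the array, was -1.97, -1.66 and -1.66 in the Goto-Kakizaki pools, against 4.31, 4.38 and 4.37 in the streptozotocin pools. The groups lay far apart, at a 69.4-fold lower level in Goto-Kakizaki rats (log2 fold change -6.12, SE 0.17, adjusted p = 1.32e-14), and the Wistar pools, at 4.54, 4.17 and 4.44, lay with the streptozotocin pools. Galnt16, one of the enzymes that start the O-glycosylation of proteins, was at -3.66, -3.25 and -2.82 in Goto-Kakizaki pools, against 1.16, 1.33 and 1.16 in streptozotocin pools. It was 22.0-fold lower without overlap (log2 fold change -4.46, SE 0.23, adjusted p = 1.97e-11), and Wistar pools were at 1.27, 1.10 and 1.20. Scn9a, the voltage-gated sodium channel Nav1.7 known from pain-sensing neurons, was well above background on no Goto-Kakizaki array and at -1.76, -2.04 and -1.78 in the streptozotocin pools. Such a probe has only a bound, taken against the higher of its own signal and the lowest signal well above background on each array, and Scn9a was at least 15.2-fold lower (adjusted p = 2.17e-11). A second probe of Scn9a, at a log2 fold change of -0.56 (adjusted p = 0.362), was not called.

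Ephx2, an epoxide hydrolase of the cytosol that acts on epoxides of fatty acids, was at -5.34, -4.98 and -4.63 in Goto-Kakizaki pools, against -1.86, -1.56 and -2.06 in streptozotocin pools. It was 8.92-fold lower (log2 fold change -3.16, SE 0.20, adjusted p = 4.01e-10), with no overlap and with the Wistar pools at -1.19, -1.62 and -1.20. Rps7, a protein of the small ribosomal subunit, was at 1.22, 1.51 and 1.69 in Goto-Kakizaki pools, against 4.50, 4.51 and 4.80 in streptozotocin pools. Its 8.73-fold lower level (log2 fold change -3.13, SE 0.18, adjusted p = 1.24e-10) again separated all pools, and Wistar pools read 4.40, 4.73 and 4.56. The ribosomal protein genes have many near-identical processed copies in the genome, so the transcript behind the Rps7 probe is uncertain.

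Adcy10, the soluble adenylyl cyclase that is driven by bicarbonate, was at least 8.31-fold lower in Goto-Kakizaki rats, Tpcn2, a cation channel of endosomes and lysosomes, at least 3.99-fold, Slc9b1, of the sodium/proton exchanger family, at least 3.64-fold, and Oxnad1, named for an oxidoreductase domain, at least 3.05-fold, since none was well above background on a Goto-Kakizaki array. RT1-Bb, a class II chain of the rat major histocompatibility complex, was well above background on 1 of 3 Goto-Kakizaki arrays, and its pools ranged from -8.27 to -4.83 in Goto-Kakizaki rats, against -1.66 to -1.34 in streptozotocin-treated rats (log2 fold change -4.90, SE 0.56, adjusted p = 3.38e-06). A second RT1-Bb probe, at 0.59 on the same scale (adjusted p = 0.178), was not called. Cyp2d5, a cytochrome P450 of a family with near-identical members, also was well above background on 1 of 3 Goto-Kakizaki arrays (log2 fold change -3.26, SE 0.88, adjusted p = 0.0147), and without Goto-Kakizaki pool 3 it was not called (log2 fold change -2.76, adjusted p = 0.081). With normexp, Cdc25a, Cyp2d5, Oxnad1, Slc9b1 and Ucp3 among these 14 largest named decreases missed the threshold.

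In 3 of the 14 largest named decreases the streptozotocin pools, not the Goto-Kakizaki pools, stood apart from Wistar. The probe annotated to S100b, a calcium-binding protein of astrocytes, was at -4.46, -4.71 and -4.33 in Goto-Kakizaki pools, against 1.54, 1.48 and 1.79 in streptozotocin pools. Goto-Kakizaki rats thus had a 68.8-fold lower signal (log2 fold change -6.11, SE 0.20, adjusted p = 1.32e-14), but the Wistar pools, at -4.44, -4.41 and -3.66, overlapped with the Goto-Kakizaki pools, and streptozotocin against Wistar gave a log2 fold change of 5.77 (SE 0.20, adjusted p = 8.68e-14). The same held in the other regions, where S100b was at -4.89 in Goto-Kakizaki, 1.70 in streptozotocin and -4.39 in Wistar hippocampus, and at -3.77, 1.99 and -3.67 in the striatum of the same groups (means, n = 3 each). The other 15 astrocyte markers tested were not called, and it was not checked whether these 60 bases lie in the S100b transcript. Ucp3, an uncoupling protein of the mitochondrial inner membrane, was well above background on 1 of 3 Goto-Kakizaki arrays and 2 of 3 Wistar arrays, and its streptozotocin pools were at -3.06, -2.48 and -3.25 (log2 fold change of Goto-Kakizaki over streptozotocin -3.16, SE 0.32, adjusted p = 5.77e-07). Streptozotocin against Wistar gave a log2 fold change of 2.76 for Ucp3 (SE 0.32, adjusted p = 3.32e-05). Cdc25a, a phosphatase that drives the cell cycle, was well above background in streptozotocin pools and on no Goto-Kakizaki or Wistar array, and was at least 3.04-fold lower in Goto-Kakizaki than in streptozotocin prefrontal cortex.

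Among the increases in Goto-Kakizaki rats of probes with a gene symbol, Acox2, a peroxisomal oxidase of branched-chain fatty acids and bile acid intermediates, changed most. It was at -2.08, -2.24 and -2.23 in Goto-Kakizaki pools, against -5.23, -5.10 and -6.64 in streptozotocin pools. The groups did not overlap (log2 fold change 3.47, SE 0.41, adjusted p = 5.57e-06, 11.1-fold), and the Wistar pools, at -5.44, -5.23 and -6.86, lay with the streptozotocin pools. Tanc2, a scaffold protein of the postsynaptic density, was at -0.71, -1.29 and -2.03 in Goto-Kakizaki pools, against -4.02, -4.27 and -3.62 in streptozotocin pools. Despite a wide spread among Goto-Kakizaki pools it was 6.15-fold higher without overlap (log2 fold change 2.62, SE 0.40, adjusted p = 0.000122). Odf1, a protein of the outer dense fibres of the sperm tail, was at -1.95, -1.92 and -1.70 in Goto-Kakizaki pools, against -4.23, -4.40 and -4.21 in streptozotocin pools, and was 5.35-fold higher (log2 fold change 2.42, SE 0.33, adjusted p = 3.23e-05).

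Slc11a1, a metal ion transporter of phagocytes known as NRAMP1, was at -0.76, -0.58 and -0.60 in Goto-Kakizaki pools, against -2.48, -2.75 and -2.81 in streptozotocin pools. Its groups were narrow and apart (log2 fold change 2.03, SE 0.32, adjusted p = 0.000175), and Wistar pools ranged from -3.13 to -2.30. Sema3f, a secreted guidance cue for axons, was at -0.46, -1.29 and -0.91 in Goto-Kakizaki pools, against -2.86, -2.69 and -3.14 in streptozotocin pools (log2 fold change 2.01, SE 0.30, adjusted p = 8.61e-05). Wistar pools of Sema3f lay between them and nearer to streptozotocin, at -2.32, -2.50 and -2.35. Slc11a1 and Sema3f alone of the 13 largest named increases kept the call with normexp.

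For 7 of these 13 increases no streptozotocin array was well above background, so only a bound can be given. C1qtnf9, a secreted relative of adiponectin, was at least 5.84-fold higher in Goto-Kakizaki rats, Rhoj, a small GTPase of endothelial cells, at least 5.42-fold, Ermp1, a metallopeptidase of the endoplasmic reticulum, at least 4.2-fold, Ifit1, an interferon-induced antiviral protein, at least 2.76-fold, and Baat, which conjugates bile acids to amino acids, at least 2.75-fold. C1qtnf9 and Rhoj were well above background on all Wistar arrays and were also called lower in streptozotocin than in Wistar prefrontal cortex (adjusted p = 0.00925 and 0.00106). The bounds of Chst9, a sulfotransferase (1.45-fold), and Clps, the cofactor of pancreatic lipase (1.26-fold), were small, and with normexp both probes turned, to log2 fold changes of -0.088 and -0.18. Ibsp, a sialoprotein of bone matrix, was well above background on 2 of 3 streptozotocin arrays (log2 fold change 2.06, SE 0.36, adjusted p = 0.000499).

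**Figure D1:**
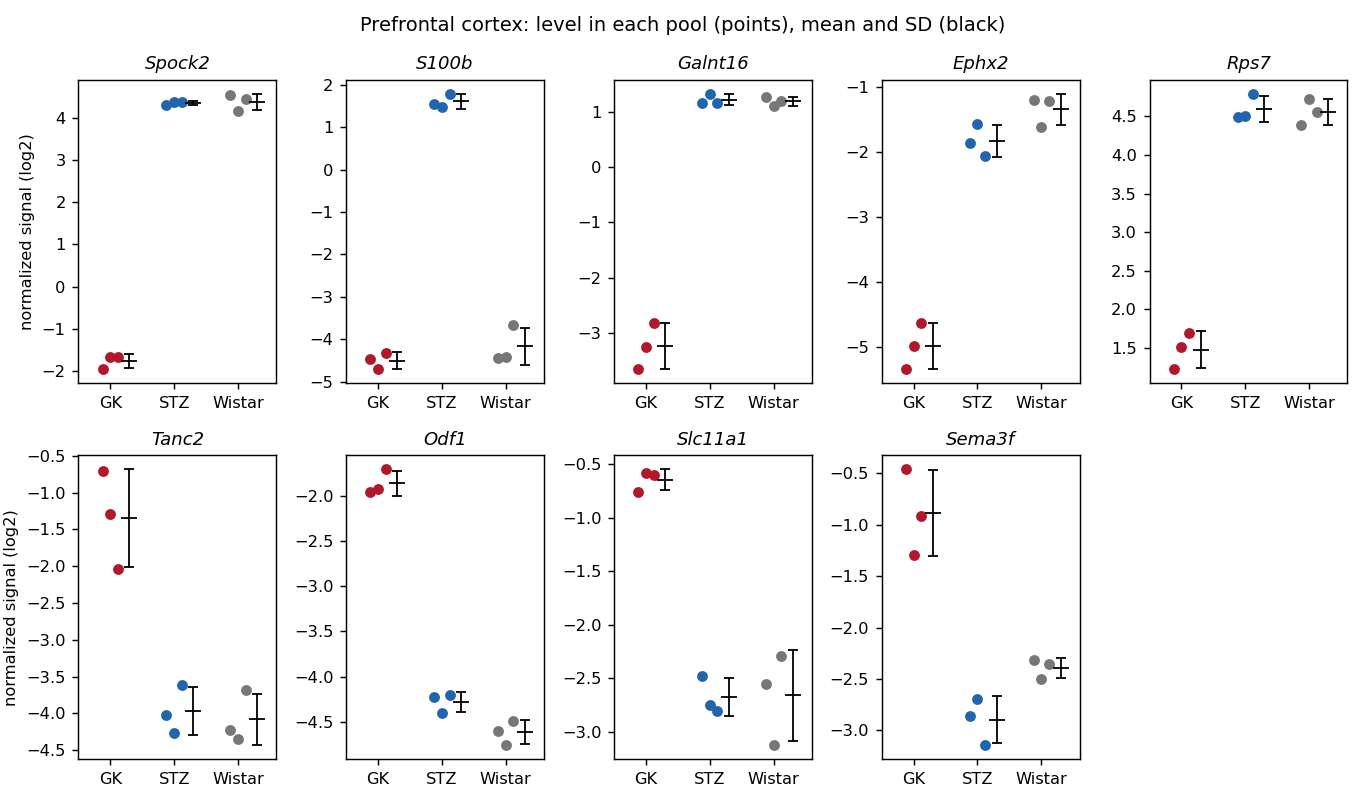
Normalised signal (log2, relative to the 75th percentile of each array) of 9 genes in the 3 prefrontal pools of Goto-Kakizaki (GK), streptozotocin (STZ) and Wistar control rats, with points for pools and black marks for mean and SD. The STZ and Wistar pools of Spock2 lie at 4.17 to 4.54 and the GK pools below -1.6, whereas for S100b the GK and Wistar pools lie together and the STZ pools apart.

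The Wistar pools, whose spread entered the shared estimate of the fit but whose level entered neither side of the contrast, were used to ask on which side each difference lay. The Wistar mean lay nearer the streptozotocin mean for 743 of the 1082 called probes (68.7%) and nearer the Goto-Kakizaki mean for 339, and it lay between both means for 807 (74.6%). Probes lower in Goto-Kakizaki rats had the Wistar mean nearer streptozotocin in 525 of 708 cases (74.2%), and probes higher in Goto-Kakizaki rats in 218 of 374 (58.3%). On a scale with the Goto-Kakizaki mean at 0 and the streptozotocin mean at 1, the median position of the Wistar mean was 0.75 for probes called lower and 0.62 for those called higher. Wistar and streptozotocin arrays lay on the same slides, and the part of this in their nearness was not tested.

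Goto-Kakizaki against Wistar prefrontal cortex called 769 of 30667 probes (2.51%), 231 higher (0.753%) and 538 lower (1.75%), and streptozotocin against Wistar called 303 of 30594 (0.99%), 100 higher (0.327%) and 203 lower (0.664%). The 2 comparisons share the Wistar arrays and each shares arrays with the direct comparison, so their values are only set side by side. Over the probes called higher in Goto-Kakizaki than in streptozotocin rats, the median log2 fold change was 0.80 for Goto-Kakizaki and -0.53 for streptozotocin against Wistar. Over the probes called lower, these medians were -1.06 and 0.36. Chrna5, a nicotinic acetylcholine receptor subunit of deep cortical layers, was 1 of those where streptozotocin stood apart: it was at -3.25, -3.07 and -2.61 in Goto-Kakizaki pools, at -1.19, -1.14 and -1.33 in streptozotocin pools and at -2.94, -2.74 and -3.00 in Wistar pools. Goto-Kakizaki pools of Chrna5 were apart from streptozotocin pools (log2 fold change -1.76, SE 0.17, adjusted p = 4.37e-07) and overlapped with Wistar pools, and with normexp the difference missed the adjusted threshold (-1.44, adjusted p = 0.0558).

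**Figure D2:**
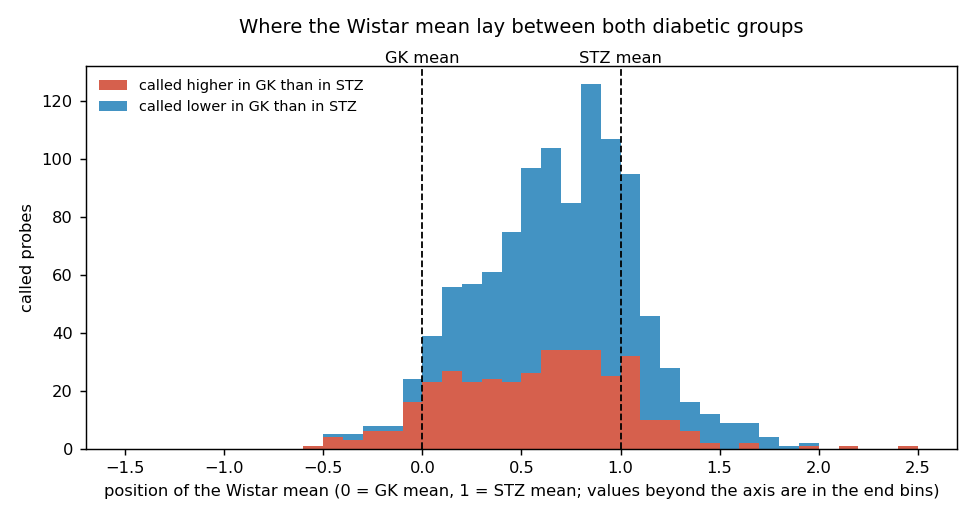
Number of called probes (vertical axis) by the position of the Wistar mean between the Goto-Kakizaki mean (0) and the streptozotocin mean (1), for probes called higher and lower in Goto-Kakizaki prefrontal cortex, with positions past the ends of the axis counted in the end bars. Most of the 1082 probes lie between the dashed lines, and 743 of them are nearer to 1 than to 0.

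Genes of insulin signalling and of energy metabolism were mostly not called. With 1 probe per gene, 325 of 12777 genes (2.54%) were called, 145 higher (1.13%) and 180 lower (1.41%), and the median log2 fold change over all of them was 0.07. Of 27 genes of insulin and IGF signalling, 1 fell and 26 were not called, with a median of 0.10. The gene that fell was Igf1, the growth factor that acts beside insulin, at 0.88, 0.75 and 0.40 in Goto-Kakizaki pools, against 1.71, 1.76 and 1.90 in streptozotocin pools. The groups did not overlap and Wistar pools lay at 1.42, 1.74 and 1.62 (log2 fold change -1.11, SE 0.16, adjusted p = 6.21e-05). Without Goto-Kakizaki pool 3 the decrease of Igf1 was under 2-fold (log2 fold change -0.98, adjusted p = 0.000776), and its 3 other probes, at -0.62, 0.12 and 0.37, were not called. Insr, the insulin receptor, was not called: its pools were at -4.91, -5.14 and -5.15 in Goto-Kakizaki rats, against -4.85, -4.94 and -4.35 in streptozotocin-treated rats, with overlap (log2 fold change -0.35, SE 0.15, adjusted p = 0.115). The difference of Insr between prefrontal cortex and striatum, a test described below, was called. That call was lost with quantile normalization (-0.99), normexp (-1.13), array weights (-0.98) and other alternatives. Irs1, the docking protein of the insulin receptor, did not pass the filter on dim probes.

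None of 27 genes of glucose transport and glycolysis was called, at a median log2 fold change of 0.14. At an adjusted p under 0.05 without the fold threshold were 5 of these 27, beside 2010 of all 12777 genes (15.7%). The smallest p-values belonged to Slc16a1, the transporter of lactate and ketone bodies (log2 fold change 0.81, adjusted p = 0.000107), and Pdk1, a kinase that restrains pyruvate dehydrogenase (0.63, adjusted p = 0.0041). Of 27 genes of fatty acid oxidation and ketone use, Acox2 rose and 26 were not called, and of 35 genes of the mitochondrial respiratory chain none was called (median -0.06). Among 26 genes of cholesterol metabolism, Cyp46a1, the cholesterol 24-hydroxylase of neurons, rose (log2 fold change 1.12, SE 0.21, adjusted p = 0.000891) and Cyp27a1, the sterol 27-hydroxylase, fell (-1.02, SE 0.22, adjusted p = 0.00283). Both were near the 2-fold threshold: Cyp46a1 missed it without Goto-Kakizaki pool 3 (0.99) and Cyp27a1 without Goto-Kakizaki pool 1 (-0.87), and with normexp neither was called (0.54, adjusted p = 0.467, and -0.95, adjusted p = 0.162). Among 30 detoxification and antioxidant enzymes Ephx2 fell and Gpx3, the secreted glutathione peroxidase, rose (1.04, SE 0.29, adjusted p = 0.0161), but Gpx3 lost the call without any of Goto-Kakizaki pools 2 and 3 and streptozotocin pools 1 and 3 (log2 fold changes 0.92, 0.87, 1.00 and 1.00, adjusted p = 0.053 to 0.0887) and with normexp (0.60, adjusted p = 0.414).

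Lists of genes of synaptic signalling held 0 to 2 calls each, which is 0% to 6.06% of a list, beside 2.54% of all genes. Slc17a6, the vesicular glutamate transporter VGLUT2 of thalamic and other subcortical neurons, was at -0.82, -0.99 and -1.43 in Goto-Kakizaki pools, against 0.71, 0.34 and 1.30 in streptozotocin pools, and was the only 1 of 28 glutamate genes called (log2 fold change -1.86, SE 0.42, adjusted p = 0.00414). Its groups did not overlap, and Wistar pools lay at 1.22, 1.36 and 0.77. None of 21 GABA genes was called. Kcnq5, a subunit of the M-type potassium channel, was the only 1 of 39 potassium and sodium channels called (-1.48, SE 0.17, adjusted p = 5.46e-06), and a second Kcnq5 probe, at 0.50 (adjusted p = 0.107), was not. Camkk1, a kinase that activates calmodulin-dependent kinases, was the only 1 of 26 genes of protein kinase C and calcium signalling called (-1.50). Its 3 Goto-Kakizaki values were at 2.32 to 2.66 and its Wistar mean was 2.84, against a single streptozotocin value of 3.97. The scanner software marked the other streptozotocin spots of Camkk1 as outliers, so its call assumes that this lone value varies like the other groups.

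Of 40 neuropeptides and their receptors, 1 rose and 1 fell. Agrp, the appetite-raising peptide of hypothalamic neurons, rose (log2 fold change 1.37, SE 0.19, adjusted p = 4.75e-05), with Goto-Kakizaki pools at -2.11, -2.06 and -2.06 and streptozotocin pools at -3.50, -3.48 and -3.36. Galr2, a receptor of the neuropeptide galanin, fell (-1.57, SE 0.26, adjusted p = 0.00027), with Goto-Kakizaki pools at -5.25, -5.21 and -5.00 and streptozotocin pools at -3.08, -3.79 and -3.89. Neither gene's groups overlapped, but with normexp neither was called (Agrp 0.61, adjusted p = 0.471, and Galr2 -1.15, adjusted p = 0.144). Of 33 serotonin, dopamine and acetylcholine genes, Chrna5 and Colq, the collagen tail that anchors acetylcholinesterase (-1.01, SE 0.14, adjusted p = 3.49e-05), fell. Of 25 genes of neurotrophin and GDNF signalling, Ret, the receptor kinase of the GDNF family, fell (-1.25, SE 0.18, adjusted p = 6.73e-05). Colq was under 2-fold without Goto-Kakizaki pool 3 (-0.97) or streptozotocin pool 1 or 2 (-0.99 and -0.96) and with normexp (-0.83, adjusted p = 0.233).

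Of 24 immediate early genes, which neurons switch on with activity, 2 fell, at a median of -0.29 and with 5 of 24 above 0. The 2 were Ier2 (-1.29, SE 0.42, adjusted p = 0.0411), with Goto-Kakizaki pools at 0.59, 2.20 and 2.55 against streptozotocin pools at 3.04, 3.10 and 3.08, and Atf3 (-1.22, SE 0.36, adjusted p = 0.0243). Goto-Kakizaki pool 1 was the lowest for both, and without it neither was called (Ier2 -0.70, adjusted p = 0.22, and Atf3 -0.80, adjusted p = 0.128). Without streptozotocin pool 1 or 2 both also missed the adjusted threshold (Ier2 -1.31 and -1.28, Atf3 -1.21 and -1.05), and Ier2 did so without streptozotocin pool 3 (-1.29). With normexp neither was called (Ier2 -1.18, adjusted p = 0.112, and Atf3 -1.13, adjusted p = 0.0709). None of 19 clock genes was called. Of 20 genes of the glucocorticoid and stress response, Hspb1, a small heat shock protein, rose (1.29, SE 0.21, adjusted p = 0.000246), with Goto-Kakizaki pools at 1.26, 1.28 and 1.24 and streptozotocin pools at -0.07, -0.16 and 0.15. A list of 19 prefrontal genes that the study had picked held 2 that rose and 6 that fell (42.1%), but the study chose it on these same samples, so it is no independent evidence.

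**Figure D3:**
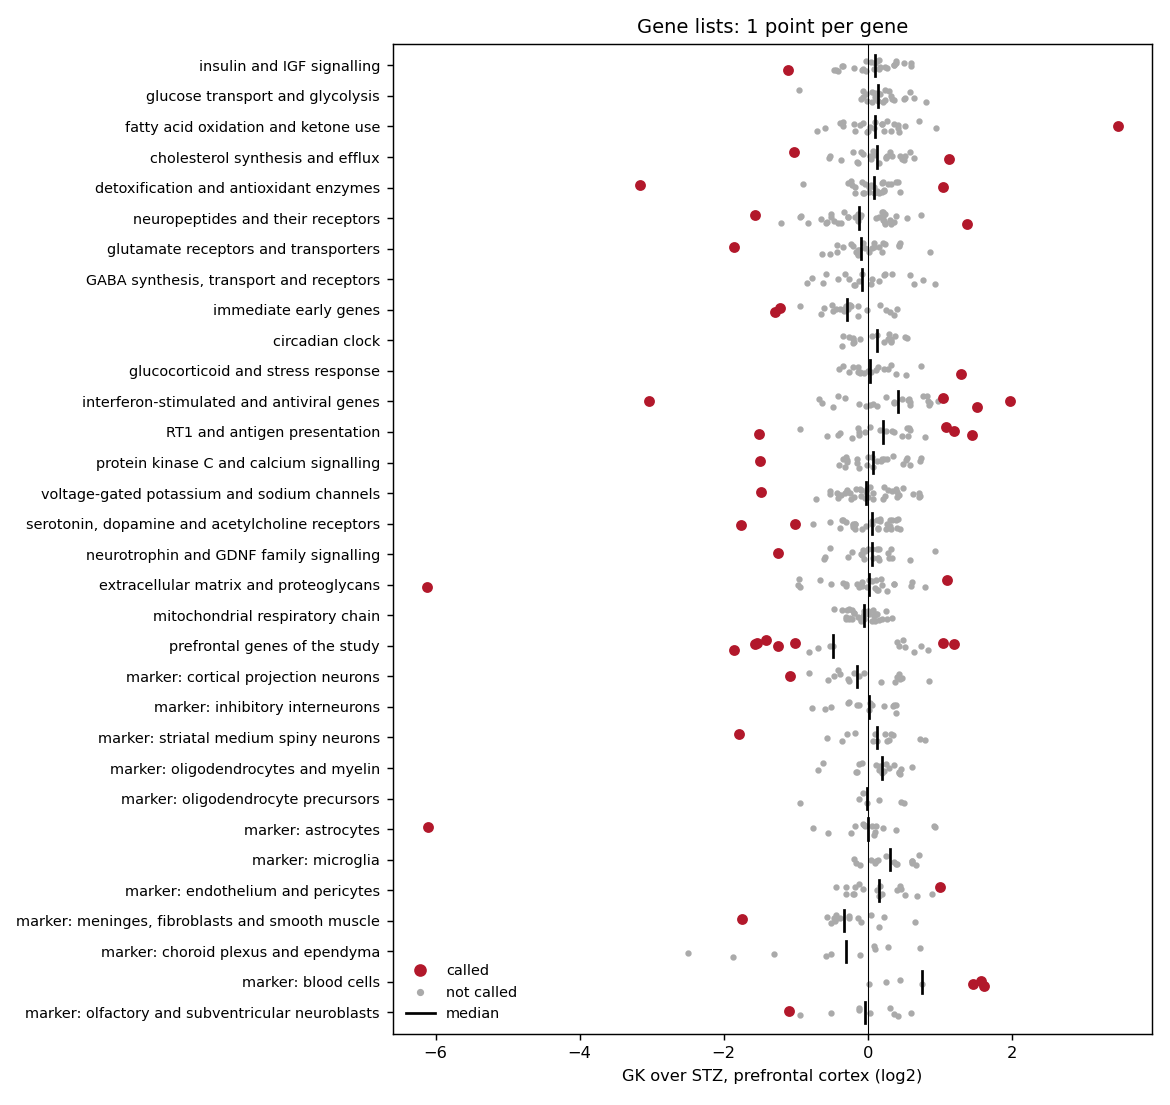
Log2 fold change of Goto-Kakizaki over streptozotocin prefrontal cortex (horizontal axis) of each gene tested in 32 lists, with called genes in red, others in grey and the median of a list as a black bar. Most lists hold 0 to 2 called genes, and Spock2 and S100b lie at -6.12 and -6.11.

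Interferon-stimulated and antigen-presentation genes held more called members than most lists. Of 28 interferon genes 3 rose and 1 fell (14.3%, beside 2.54% of all genes), and 20 of 28 had a positive log2 fold change, at a median of 0.42. Mx2, a dynamin-like antiviral GTPase, was at 0.41, 0.32 and -0.18 in Goto-Kakizaki pools, against -1.65, -1.84 and -1.87 in streptozotocin pools (log2 fold change 1.97, SE 0.19, adjusted p = 2.89e-07). Irf7, the transcription factor that amplifies interferon production, was at 1.38, 1.84 and 1.22 in Goto-Kakizaki pools, against -0.09, -0.20 and 0.18 in streptozotocin pools (1.52, SE 0.30, adjusted p = 0.00166). Groups of both genes were apart, with Wistar pools of Mx2 at -1.93 to -1.56 and of Irf7 at -0.88 to -0.36. Oas1a, an oligoadenylate synthetase that senses double-stranded RNA, was at 1.49, 1.99 and 1.33 in Goto-Kakizaki pools, against 0.57, 0.36 and 0.76 in streptozotocin pools (1.04, SE 0.28, adjusted p = 0.0136), and missed the threshold without Goto-Kakizaki pool 2 or streptozotocin pool 2 (0.85 and 0.94).

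Oas1b, a neighbour of Oas1a from the same gene family, went the other way: it was well above background on no Goto-Kakizaki array and at -4.78, -4.89 and -4.65 in streptozotocin pools, and was at least 2.02-fold lower (adjusted p = 5.77e-07). Oas1 genes have near-identical copies, which a probe may not tell apart. With normexp the decrease of Oas1b was not called (-1.24, adjusted p = 0.248), while Mx2, Irf7 and Oas1a kept the call. The 2 probes of Ifit1 disagreed in sign: the dimmer was at least 2.76-fold higher in Goto-Kakizaki rats, and the brighter, which stands for the gene in the list, was at -0.63 (adjusted p = 0.018).

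Interferon acts on its target genes through a response element with paired GAAA repeats. The 100 bases before the start of 3 called genes are shown because the table of promoters used here held these 3, with every match to GAAANNGAAA, on either strand, in capitals (RefSeq, GRCr8).
Oas1a, chr12:41330366-41330465, plus strand: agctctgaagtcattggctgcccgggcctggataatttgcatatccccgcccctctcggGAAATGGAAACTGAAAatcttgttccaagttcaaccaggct
Oas1b, chr12:41395853-41395952, minus strand: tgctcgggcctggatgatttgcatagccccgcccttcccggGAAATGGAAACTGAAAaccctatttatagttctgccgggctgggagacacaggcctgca
Irf7, chr1:205800024-205800123, minus strand: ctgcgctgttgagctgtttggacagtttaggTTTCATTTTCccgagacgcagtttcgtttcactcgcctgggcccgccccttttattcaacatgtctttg
Oas1a, which rose, and Oas1b, which fell, carry the same run of 2 overlapping matches. The motif was found in 16 of 21 interferon list genes with a promoter in the table (76.2%) and in 3.92% of all 33469 promoters of 300 bases. A match is a description of letters and not of binding.

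Of 24 RT1 and antigen-presentation genes 3 rose and 1 fell (16.7%). RT1-CE7 and RT1-T24-1, class I genes of the rat histocompatibility complex, rose (log2 fold changes 1.44 and 1.20, SE 0.31 and 0.24, adjusted p = 0.00294 and 0.0018), as did Tapbp, which loads peptides on class I molecules (1.09, SE 0.16, adjusted p = 0.000108). Tap2, a subunit of the peptide transporter, fell (-1.51, SE 0.33, adjusted p = 0.00327), with Goto-Kakizaki pools at -3.27, -2.17 and -1.65 against streptozotocin pools at -1.02, -0.78 and -0.76. Tapbp was just under 2-fold without Goto-Kakizaki pool 2 (0.996, adjusted p = 0.00137), and with normexp Tapbp (0.74, adjusted p = 0.0943) and RT1-CE7 (0.985, adjusted p = 0.0435) were not called. RT1 genes vary strongly between rat strains and have near-identical copies, so which gene a probe reads is uncertain.

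Markers of red blood cells moved with the comparison, while markers of brain cell types gave at most 1 call per list. Of 7 blood cell markers tested 3 rose (42.9%), all 7 had a positive log2 fold change, and the median was 0.75. Alas2, the first enzyme of haem synthesis in erythroid cells, was at 0.51, 1.34 and 1.22 in Goto-Kakizaki pools, against -0.51, -0.58 and -0.68 in streptozotocin pools (1.62, SE 0.22, adjusted p = 3.48e-05). Hbb, a beta globin, was at 0.12, 1.08 and 0.93 in Goto-Kakizaki pools, against -0.78, -0.90 and -0.91 in streptozotocin pools (1.57, SE 0.27, adjusted p = 0.000446). Both were apart, and Goto-Kakizaki pool 1 was the lowest of its group for each. Slc4a1, the anion exchanger of red cells, overlapped between groups (1.46, SE 0.41, adjusted p = 0.0171) and lost the call without Goto-Kakizaki pool 2 or 3 or streptozotocin pool 1 or 2 (1.22, 1.28, 1.36 and 1.24) or with normexp (0.14). The level of the whole blood list ranged from -0.05 to 1.13 in Goto-Kakizaki pools, -0.64 to -0.09 in streptozotocin pools and -0.60 to 0.47 in Wistar pools, and the part of blood in other differences was not tested. In these bulk samples fewer cells of a type and less RNA per cell cannot be told apart.

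Of 16 microglia markers none was called, at a median of 0.31, with C1qa (0.66, adjusted p = 0.00507) and C1qb (0.70, adjusted p = 0.0137), both parts of complement C1q, among the smallest p-values. None of 19 oligodendrocyte, 7 precursor and 15 interneuron markers was called. S100b was the only 1 of 16 astrocyte markers called, Ccn2, a matricellular protein of layer 6b neurons, the only 1 of 18 projection neuron markers (-1.08, SE 0.23, adjusted p = 0.0033) and Pde10a, a phosphodiesterase of striatal neurons, the only 1 of 15 medium spiny neuron markers. Pde10a was at -0.77, -1.24 and -1.11 in Goto-Kakizaki pools, against 0.71, 0.95 and 0.58 in streptozotocin pools (-1.79, SE 0.15, adjusted p = 5.95e-08), and it fell alike in the striatum itself (-1.79, adjusted p = 5.15e-08). Of 19 vascular markers Tie1, an endothelial receptor, rose (1.00, SE 0.30, adjusted p = 0.0251) and lost the call without 4 of the 6 pools (Goto-Kakizaki 2 or 3, streptozotocin 1 or 3: 0.90, 0.98, 1.01 and 0.88) and with normexp (0.28). Ccn2 was under 2-fold without Goto-Kakizaki pool 1 (-0.94) and with normexp (-0.99). The choroid plexus list gave no call among 10 genes, though Ttr, the transthyretin of choroid epithelium, was at -2.49 (adjusted p = 0.182).

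Of 29 extracellular matrix genes Spock2 fell and Acan, the aggrecan of perineuronal nets, was called higher at a bound of at least 1.34-fold, but Acan turned to -0.37 with normexp and lost the call without streptozotocin pool 3 (0.78, adjusted p = 0.07). Of 16 markers of meninges and fibroblasts Ogn fell, and its neighbours on the chromosome, Omd and Aspn, fell with it. All 3 encode small leucine-rich proteins of connective tissue, and their log2 fold changes were -1.75 (SE 0.35, adjusted p = 0.00164), -1.79 (SE 0.21, adjusted p = 4.04e-06) and -1.72 (SE 0.33, adjusted p = 0.00106). The Wistar mean of Aspn (-3.70) lay nearer the Goto-Kakizaki mean (-4.03) than the streptozotocin mean (-2.31). For Ogn (0.84) and Omd (-0.55) the Wistar mean lay nearer streptozotocin (1.34 and -0.21) than Goto-Kakizaki (-0.40 and -2.00). A second Ogn probe, at -0.18, was not called. Goto-Kakizaki pool 2 was the lowest of its group for each gene (Ogn -1.55, Omd -2.40, Aspn -4.82). The level of the whole meninges list spread from -0.66 to 0.61 among Goto-Kakizaki pools, 0.10 to 0.20 among streptozotocin pools and 0.25 to 0.83 among Wistar pools, with a median log2 fold change of -0.33 over its 16 genes. Its part in the decrease of Ogn, Omd and Aspn was not tested.

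Called genes lay next to each other in 13 runs, and 16 of 325 called genes (4.92%) were followed on the chromosome by another called gene, beside 2.54% of all genes called. The longest runs had 3 genes. Besides Ogn, Omd and Aspn, 1 run held Fam107a, an actin-binding stress-response gene that fell (log2 fold change -1.11), Acox2, which rose (3.47), and Kctd6, an adaptor of ubiquitin ligases that rose (1.01). The other held Umod, the uromodulin of kidney tubules (at least 2.8-fold lower), Pdilt, a testis relative of protein disulfide isomerase (at least 1.43-fold lower), and Acsm5, a mitochondrial acyl-CoA synthetase (-2.21, SE 0.31, adjusted p = 4.55e-05). Acsm5 and Kctd6 kept the call with normexp, while Acox2, Umod, Pdilt and Aspn missed the adjusted threshold and Fam107a was under 2-fold (-0.97). Members of the first run moved in both directions, and Kctd6 was under 2-fold without Goto-Kakizaki pool 1 or streptozotocin pool 1 or 3 (0.96, 0.996 and 0.97).

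Probes of the same gene often disagreed. Of 112 genes with a called probe and at least 2 tested probes, 12 had another probe called the same way, 100 had no other probe called, and none had a probe called the other way. In 35 of them another probe moved by less than 0.2 on the log2 scale. Oxnad1 was at least 3.05-fold lower at the called probe, which was well above background on no Goto-Kakizaki array and missed the threshold with normexp, and its other probe was at a log2 fold change of 0.08 (adjusted p = 0.754). Marf1, a regulator of RNA turnover known from oocytes, was at -0.99, -0.28 and -0.08 in Goto-Kakizaki pools, against 2.50, 2.27 and 2.23 in streptozotocin pools at the called probe (-2.78, SE 0.24, adjusted p = 8.65e-08), and its other probes were at -0.19 and 0.46. Wistar pools of the called Marf1 probe, at 0.41, 0.31 and 0.27, lay between both models and nearer to Goto-Kakizaki. Both probes of Acsm5 were called lower, at -2.21 and, with no Goto-Kakizaki array well above background, at -3.07.

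Ermp1 had a called probe that was at least 4.2-fold higher, as above, and others at 0.92 and 0.16 on the log2 scale. Sv2b, a synaptic vesicle protein, had probes at -2.06, -0.42 and 0.20, and the first rests on 2 Goto-Kakizaki values because a spot was marked as an outlier. Emp1, an epithelial membrane protein, had probes at -1.91 and -0.19, and at the first the groups overlapped and the call was lost without Goto-Kakizaki pool 1 or 3 (-1.54 and -1.81), with normexp (-1.35) and with the pool number as a block in the fit. Ogn had a second probe at -0.18. Whether such probes read different transcripts of a gene was not tested.

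**Figure D4:**
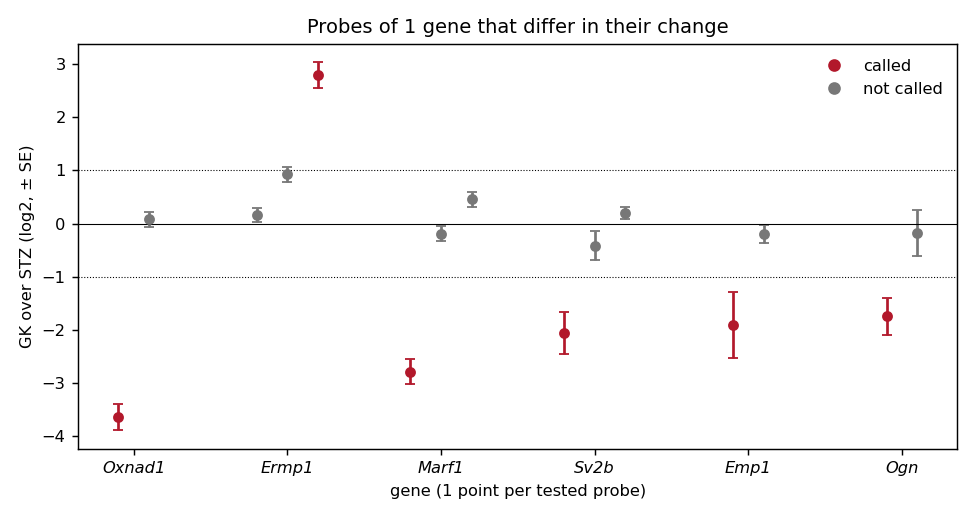
Log2 fold change of Goto-Kakizaki over streptozotocin prefrontal cortex, with SE, for each tested probe of 6 genes, in red where called, with dotted lines at 2-fold. The called Oxnad1 probe, plotted at its measured -3.64, was well above background on no Goto-Kakizaki array, and its other probe lies at 0.08.

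The same contrast of models was available in the hippocampus and striatum of the same rats, on other arrays. Between Goto-Kakizaki and streptozotocin hippocampus 846 of 30051 probes (2.82%) were called, and in the striatum 1510 of 30102 (5.02%). Of the prefrontal calls, 1011 were tested in the hippocampus, where 955 (94.5%) had the same sign, beside 63.1% of all probes tested in both. There 456 were called in the same direction, which is 45.1% of the prefrontal calls tested and 53.9% of the hippocampal calls, and none was called in the opposite direction. In the striatum 996 were tested, 933 (93.7%) had the same sign, beside 67.1% of all probes, and 522 were called in the same direction (52.4% of those tested and 34.6% of the striatal calls), with 6 called in the opposite direction. In the hippocampus the Goto-Kakizaki pools lay on slides 2 and 3 and the streptozotocin pools on slides 5, 6 and 7. Slide and model thus cannot be told apart there either, and the streptozotocin slides were those of the prefrontal cortex. In the striatum other slides were used, with Goto-Kakizaki pools on slide 4 and streptozotocin pools on slides 1, 2 and 3. Slide and model cannot be told apart in the striatum either. The regions come from the same animals, so they are not independent samples of the strains.

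Of the 1082 prefrontal calls, 346 were called the same way in all 3 regions, 112 higher and 234 lower in Goto-Kakizaki rats. Another 447 were called in neither other region, where probes not tested there count as not called. A missing call in another region is not a difference between regions, which is tested below. The log2 fold change of Spock2 was -6.19 in hippocampus and -5.40 in striatum, that of Galnt16 -4.68 and -4.43, of Rps7 -3.31 and -3.22, and of Ephx2 -3.84 and -2.83, all called. Acox2 (2.58 and 2.80), Tanc2 (2.76 and 3.32) and Odf1 (2.06 and 2.30) rose in both. Slc17a6 was not called in the hippocampus (0.61) or the striatum (-0.28), and neither was Igf1 (-0.22 and -0.48), but the difference between regions was not past the threshold for Slc17a6 (adjusted p = 0.0786 against hippocampus and 0.244 against striatum) or Igf1 (0.0878 and 0.226). Galr2, with -0.11 in hippocampus and 0.45 in striatum, differed from the striatum (difference -2.02, adjusted p = 0.0132). Its difference to the hippocampus missed the threshold (-1.46, adjusted p = 0.0854). The striatal one was not called with normexp (-1.51, adjusted p = 0.556) or in narrower fits (adjusted p = 0.106 and 0.132).

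**Figure D5:**
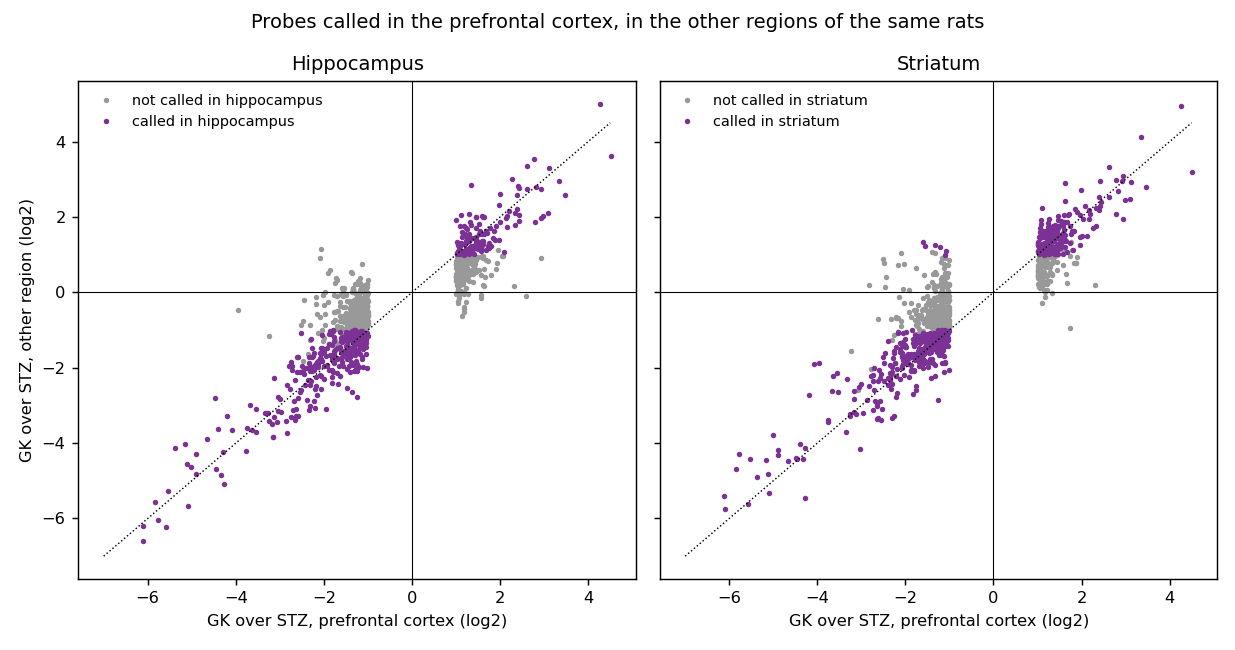
Log2 fold change of Goto-Kakizaki over streptozotocin for the probes called in the prefrontal cortex (horizontal axes), against the same contrast in hippocampus (left) and striatum (right), with purple points called there too and a dotted line of equal change. Most points, 955 of 1011 and 933 of 996, have the same sign on both axes.

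The difference between regions was itself tested as a difference of differences. It was called for 84 of 31038 probes (0.271%) against the hippocampus, 23 higher (0.0741%) and 61 lower (0.197%), of which 22 were called in the prefrontal cortex and 27 in the hippocampus. Against the striatum it was called for 93 of 31265 probes (0.297%), 18 higher (0.0576%) and 75 lower (0.24%), of which 48 were called in prefrontal cortex and 31 in striatum. With slide as a fixed effect 41 probes were called against the hippocampus, of which 34 were among the 84. Against the striatum such a fit cannot estimate the difference. Goto-Kakizaki prefrontal and streptozotocin striatal pools lay on slides 1, 2 and 3. Streptozotocin prefrontal and Goto-Kakizaki striatal pools lay on slides 4, 5, 6 and 7. No group of the series had arrays in both sets of slides, so slide and the difference against the striatum cannot be told apart. Qrfpr, a receptor of the feeding-related RFamide peptide QRFP, was at -2.88, -2.79 and -2.68 in Goto-Kakizaki prefrontal pools, against -0.63, -0.60 and -0.93 in streptozotocin pools (log2 fold change -2.06, SE 0.42, adjusted p = 0.00217), and in the hippocampus its log2 fold change was 1.15 (adjusted p = 0.0979). The difference between the regions was -3.22 (SE 0.60, adjusted p = 0.021). It missed the threshold with the pool number as a block (adjusted p = 0.0693), with normexp (-2.38, adjusted p = 0.436), and without Goto-Kakizaki hippocampal pool 3, Goto-Kakizaki prefrontal pool 2, streptozotocin hippocampal pool 3 or streptozotocin prefrontal pool 1 (-3.10, -3.21, -3.21 and -3.17, adjusted p = 0.0542 to 0.0723). Ocm, the calcium-binding oncomodulin, fell in prefrontal cortex (-1.60, SE 0.30, adjusted p = 0.00116) but rose in striatum (1.34, SE 0.30, adjusted p = 0.006), a difference of -2.94 (SE 0.43, adjusted p = 0.00227). Crabp1, a carrier of retinoic acid, was at 0.73 in prefrontal cortex (adjusted p = 0.00442, under 2-fold) and fell in the hippocampus (-1.73, adjusted p = 3.12e-07), a difference of 2.46 (SE 0.23, adjusted p = 1.42e-05) that was called under every alternative run.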

How the data were processed

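RNA of the 6 prefrontal pools compared, of 3 Wistar prefrontal pools and of the 18 pools of other regions was measured on single-colour Agilent arrays. The authors extracted spot intensity with Feature Extraction 9.1, and the deposited processed signal is a linear intensity after background subtraction, with no scaling from array to array. The value table deposited beside it held the same intensity. Here the log2 of that signal minus the log2 of each array's 75th percentile was taken for the 41012 non-control probes, with outlier spots left out. Probes that at least 2 of 3 arrays of either group read well above background were tested with limma 3.58.1 in R 4.3.3, fitted over all 9 groups (18 residual degrees of freedom), and called at a Benjamini-Hochberg adjusted p under 0.05 and at least 2-fold. Labels do not say that equal pool numbers hold the same animals. For region differences all 4 groups entered the filter.

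Names came from the array annotation updated through RefSeq (GRCr8), in which 20035 probes matched a gene (10735 by accession, 5571 by symbol, 3729 by synonym) and 20977 did not. A gene in a list is read from its probe of highest mean level. Named genes were the 14 largest increases and decreases with a gene symbol, placeholder symbols excepted, and non-overlapping groups, up to 4 called members per list (or the 2 smallest p), the 5 largest region differences each way, 6 genes with disagreeing probes, the 3 longest runs, and Insr and Irs1. A gene that met the rule is not reported here. Members and lists were chosen with earlier results of these data known. The script was tested on simulated data. Alternatives were other normalizations and filters, normexp (offset 50), array weights, slide and pool blocks, narrower fits, Welch's test of the methods, and leaving out each pool. Files were read with Python 3.11.15, pandas 2.3.3 and numpy 2.4.6, and figures drawn with matplotlib 3.10.9.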

Additional observations from a re-analysis of the deposited data

Results flagged for a closer look

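Results of this kind are those in which the difference between Goto-Kakizaki and streptozotocin rats itself differed between the prefrontal cortex and another region of the same animals, by the test of that difference in limma at an adjusted p under 0.05 and at least 2-fold. Values are differences of log2 fold changes, prefrontal cortex minus the other region, and groups of 3 pools were not screened for single extreme samples.

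Against the hippocampus 84 probes differed. The largest positive differences with a gene symbol were those of Ing5, of a histone acetylation complex (2.81), Chst9 (2.67), Ltbp2, an extracellular matrix protein that binds microfibrils (2.52), Crabp1, a carrier of retinoic acid (2.46), and Grhl3, an epithelial transcription factor (2.43). Crabp1 differed by 0.73 in the prefrontal cortex (not called) and fell by 1.73 in the hippocampus (called), and Grhl3 differed by -0.14 and -2.57. The largest negative differences were those of Sult1c3, a sulfotransferase (-4.56), Qrfpr (-3.22), Lrat, which esterifies retinol (-2.89), Vill, a villin-like actin-binding protein (-2.17), and Aspn (-2.11). Lrat was not tested in the prefrontal cortex alone, where it did not pass the filter on dim probes, and Sult1c3 was well above background on no Goto-Kakizaki prefrontal array. Chst9 was so on no streptozotocin prefrontal array, so its differences and their rank in both regions rest on signals near background. Of the 10 named differences, Aspn, Ing5, Lrat, Ltbp2 and Sult1c3 lost the call with slide as a fixed effect, Aspn, Lrat, Qrfpr and Sult1c3 with the replicate block, and all but Crabp1 with normexp. Aspn, Ing5, Lrat, Ltbp2, Qrfpr and Sult1c3 also lost it without at least 1 single pool.

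Against the striatum 93 probes differed. Among the largest positive differences were those of Fmo13, a flavin monooxygenase (2.89), Grhl3 (2.55), Chst9 (2.27) and Mamdc2, a matrix protein (1.93), and the largest negative ones were those of Zp2, an egg coat protein (-3.08), Ocm (-2.94), Umod (-2.88), Sftpc, a surfactant protein of the lung (-2.62), and Crisp3, a secreted cysteine-rich protein (-2.36). Umod, Zp2, Sftpc and Crisp3 were well above background on no Goto-Kakizaki prefrontal array, so the sizes of their differences rest on signals near background. With normexp each of them lost the call. A second probe of Sftpc had a log2 fold change of 0.43 between the models in prefrontal cortex (limma, adjusted p = 0.315) and was not called there. Fmo13 was well above background on no prefrontal array of either model and lost the call without 10 of 12 single pools, with the replicate block, and with no filter, and Crisp3 lost it without 3 single pools. A fit with slide as a fixed effect cannot estimate the differences against the striatum, for the layout of slides given above, so these differences stand without adjustment for slide.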

How the results depend on the processing

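The count of 1082 probes stayed within 1.5 times under the 50th percentile (1093), quantile normalization (1070), no or stricter filters (1172, 1021 and, with a signal of at least 100, 802), narrower fits (989 and 871), array weights (1619) and slide as a random block (1081). It was 414 with normexp, 4960 without the fold threshold, and 910 or 87 by the methods' t-test without or with Benjamini-Hochberg adjustment. Leaving out each pool gave 930 to 1286. Against the hippocampus, the 84 region differences became 2 with normexp, 335 and 208 in narrower fits, 58 with no filter, 1609 with array weights, 29 with the replicate block and 41 with slide as a fixed effect, and 24 to 147 without single pools. Against the striatum, the 93 became 4, 24, 22 and 1255 under normexp, both narrower fits and array weights, 0 with slide as a fixed effect, and 45 to 131 without single pools. Directions that reversed were all under normexp: Chst9 (-0.088, and -0.39 for its difference to the striatum), Clps (-0.18), Acan (-0.37) and the striatal difference of Fmo13 (-0.22). Of 78 named called probes normexp kept 34, the adjusted t-test 11 of 77, and leaving out each pool in turn 61. Array weights ended the calls of Acan, Atf3, Ccn2, Cyp27a1, Doc2g, Ier2 and Kctd6. Acsm5, Rps7, S100b, Spock2 and Camkk1, the last with a single streptozotocin value, kept the call in every alternative run for them. Pool numbers did not pair the models: deviations of equal numbers correlated at -0.05, -0.29 and 0.07. With the replicate block 1079 probes were called, and of the 78 named probes only Emp1 lost its call. Causes were not tested.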

Other observations

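Probes without a RefSeq name carried more of the calls. Of 13804 tested probes not matched to a gene symbol 676 were called (4.9%), 193 higher and 483 lower in Goto-Kakizaki prefrontal cortex, against 406 of 16639 matched probes (2.44%), 181 higher and 225 lower. What these unnamed probes read was not analysed here.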
